A study of Mus musculus with 12 samples.

Results

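The 43 genes described here encode the secreted and cell-surface layer of Wnt signalling, out of 38924 genes in the count tables. They were taken by family name and comprise 19 Wnt ligands, 10 Frizzled (Fzd) receptors, the co-receptors Lrp5 and Lrp6, 4 R-spondins (Rspo), 4 secreted Frizzled-related proteins (Sfrp), and 4 further secreted inhibitors, Dkk1, Dkk2, Dkk3 and Wif1. All 43 were found, each as a single gene. The study sequenced proximal colon RNA of 12 mice, 6 with the APC Min/+ genotype and 6 WT. All were C57BL/6 females aged 6 weeks, and none received a treatment. The APC Min/+ mice carry a germline mutation that truncates the APC protein made from the mutant allele, in every cell. The study saw no neoplasia at this age when the intestine was inspected under a microscope, with histological sections for the first cohort only. The genotypes lived in separate cages, so cage and genotype cannot be told apart, and the labels do not say which of the 3 shipments a mouse came from. The comparison addressed whether colonic gene expression differs between the genotypes before polyps form.

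Wnt ligands are lipid-modified proteins that act on cells near their source. A ligand bound to a Frizzled and to Lrp5 or Lrp6 stops the complex built on APC and Axin from marking beta-catenin for destruction, so that beta-catenin enters the nucleus and acts with TCF/LEF factors. In the colon this pathway keeps the stem cells at the crypt base. R-spondins strengthen it by protecting Frizzleds from the ubiquitin ligases Rnf43 and Znrf3. The Sfrp proteins and Wif1 bind the ligands themselves, and Dkk1 and Dkk2 bind Lrp5 and Lrp6.

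Counts on genes totalled between 50313805 and 197914821 per mouse. Levels are given as RPKM, counts scaled to gene length and to the total counts of the library, so that genes can be compared with each other. CPM, counts scaled to library size with TMM factors, is used for marker genes and in the tests. Apc averaged 192.2 CPM in APC Min/+ and 186.2 CPM in WT mice, counts that do not separate the alleles. All 55 genes of 12 marker lists had counts, 53 of them at least 3 in every mouse. The samples are labelled mucosa, yet the 6 smooth muscle markers summed to between 4391 and 6960 CPM in APC Min/+ and between 4636 and 5841 CPM in WT mice, beside 8559 to 11850 CPM and 7154 to 14030 CPM for the 8 epithelial markers. The summed fibroblast markers reached 1881 to 2835 CPM in APC Min/+ and 1101 to 2189 CPM in WT mice. In bulk tissue, fewer cells of a type and less RNA per cell cannot be told apart.

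The libraries of 3 mice stood apart. In the APC Min/+ mice M10_2 and M13_1 the 4 posterior Hox genes, which mark distal position along the gut, summed to 468.2 and 554.4 CPM, against 1.03 to 2.93 CPM in the other 10 mice. The 4 adipocyte markers summed to 3.46 and 8.22 CPM in these mice and to between 31.3 and 226.8 CPM in the others. The 2 markers of interstitial cells of Cajal, which pace gut contractions, summed to 438.1 and 410.3 CPM against 101.5 to 196.7 CPM, with Ano1 but not Kit above the others. In the WT mouse M17_1 the fibroblast, epithelial and endothelial markers had their lowest sums of the 12 mice, at 1101, 7154 and 56.8 CPM. Among the fibroblast markers, Col1a1, Col1a2 and Col3a1 were lowest in this mouse, but Pdgfra, Dcn and Lum were not, with Dcn at 561 CPM. Epcam, Krt20, Cdx2 and Pecam1 were also not at their lowest there. In M10_2 and M13_1, Krt20 was at 589 and 534 CPM, against at least 984.7 CPM in the other 10 mice. Cdx2 was at 49.9 and 20.65 CPM in these mice, against at least 66.65 CPM. Cdh1 went the other way, at 1491 and 1199 CPM against at most 871.4 CPM, and Cdx1 did so in M10_2 only. The other epithelial markers were within the range of the 10 mice in both. M10_2 and M13_1 also had the highest endothelial sums, 127.1 and 117.9 CPM against at most 115.4. M13_1 was nevertheless within the range of the other 10 mice for each endothelial gene, and M10_2 for Pecam1. Both mice had the lowest striated muscle sums, 20.07 and 15.3 CPM against at least 26.6. Ckm and Mylpf were below the other 10 mice in both, while Acta1 and Tnnt3 were above them in M10_2 and within their range in M13_1. Over all 12 mice the neuronal markers lay between 33.9 and 85.1, glial between 15.2 and 28.4, leukocyte between 33.5 and 67.8, and mesothelial between 2.48 and 20.2 CPM. Results are given with and without M10_2 and M13_1, and the part of these marker differences in them was not tested.

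A median of at least 1 RPKM over the 12 mice was reached by 18 of the 43 genes, or 41.9%, as it was by 34.5% of all genes in the tables. These were 3 ligands, 7 Frizzleds, both Lrp co-receptors, Rspo3, 3 Sfrp genes, Dkk3 and Wif1. A further 16 were lower but passed the filter of at least 10 counts in at least 3 mice. The remaining 9 stayed at or below 6 counts in every mouse. They were Wnt1, Wnt3a, Wnt7a, Wnt7b, Wnt8a, Wnt9b, Wnt10a, Rspo4 and Dkk1, the last known as a strong inhibitor of Lrp6. For these 9 a transcript was at or near the limit of 3 counts, which corresponds to 0.0152 to 0.0560 CPM depending on the mouse.

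**Figure D1:**
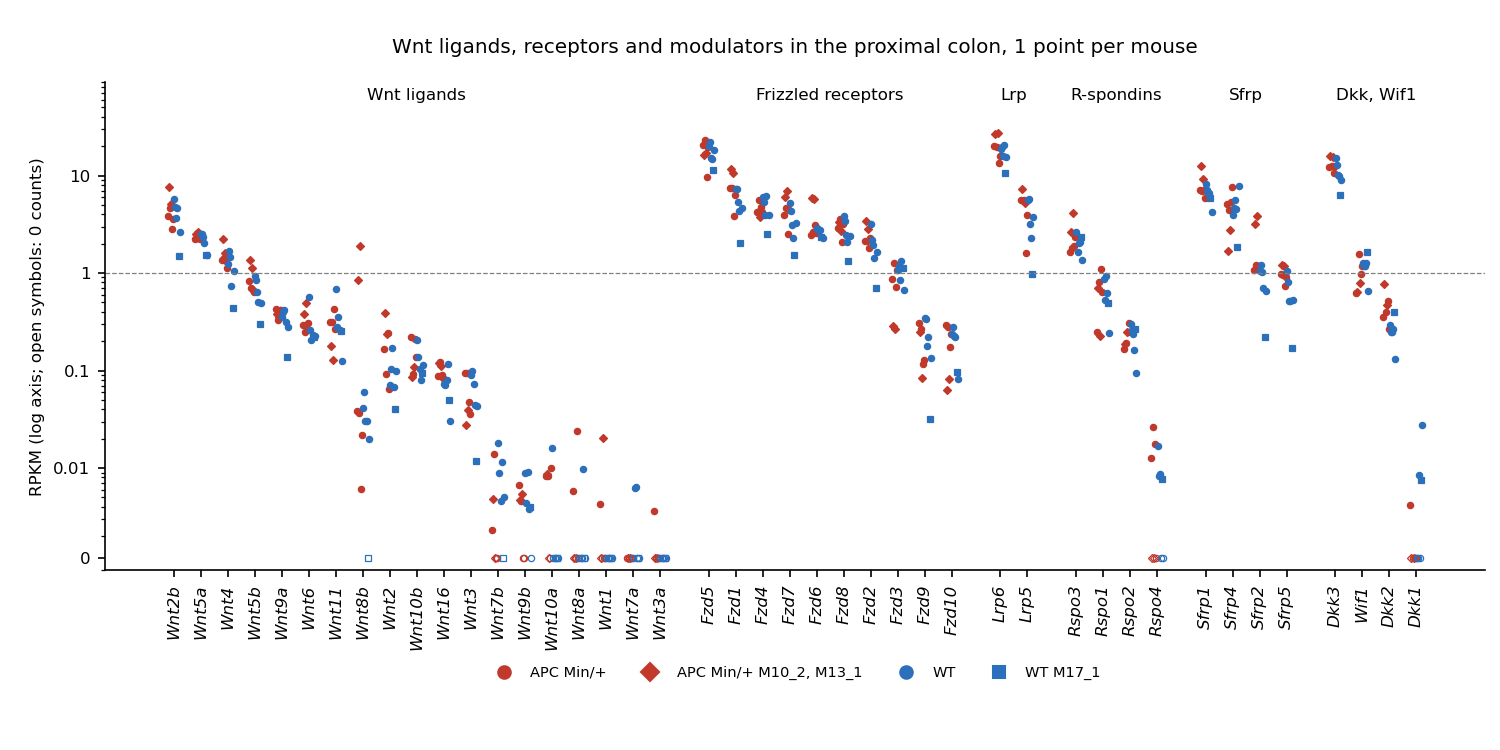
RPKM of each of the 43 genes (log axis) in each of the 12 mice, grouped by family and ordered by mean level. Red marks APC Min/+ and blue WT mice, diamonds mark M10_2 and M13_1, the square marks M17_1, open symbols at the bottom mark 0 counts, and the dashed line is 1 RPKM. Receptors and inhibitors reach 10 RPKM and more, no ligand does, and 9 genes lie at the bottom.

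Among the ligands, Wnt2b was the most abundant. It is made by stromal cells of the gut and signals through beta-catenin. Its level ran from 2.80 over a median of 4.26 to 7.57 RPKM in APC Min/+ mice, and from 1.51 over 4.16 to 5.80 RPKM in WT mice. Wnt5a, best known for signalling without beta-catenin, followed at 2.23, 2.47 and 2.61 RPKM (lowest, median, highest) in APC Min/+ and 1.54, 2.18 and 2.49 RPKM in WT mice. Wnt4 had medians of 1.38 and 1.14 RPKM, and Wnt5b, the close relative of Wnt5a, of 0.767 and 0.574 RPKM. Each of these genes held its rank in 11 of 12 mice. Wnt2b gave 40.6% ± 5.86 (SD, n = 12) of the summed RPKM of the 19 ligands and Wnt5a 23.2% ± 4.47.

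The lower ligands that passed the filter were Wnt9a, Wnt6, Wnt11, Wnt8b, Wnt2, Wnt10b, Wnt16 and Wnt3. Their medians over the 12 mice lay between 0.0334 RPKM for Wnt8b and 0.369 RPKM for Wnt9a. Wnt3, known as the product of Paneth cells in the small intestine, was at a median of 0.0458 RPKM. The summed ligand level was 11.4 ± 2.91 RPKM (SD, n = 6) in APC Min/+ and 8.95 ± 2.93 RPKM (SD, n = 6) in WT mice. It was highest in M10_2 at 16.09 RPKM and lowest in M17_1 at 4.61 RPKM, and the genotypes overlapped.

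**Figure D2:**
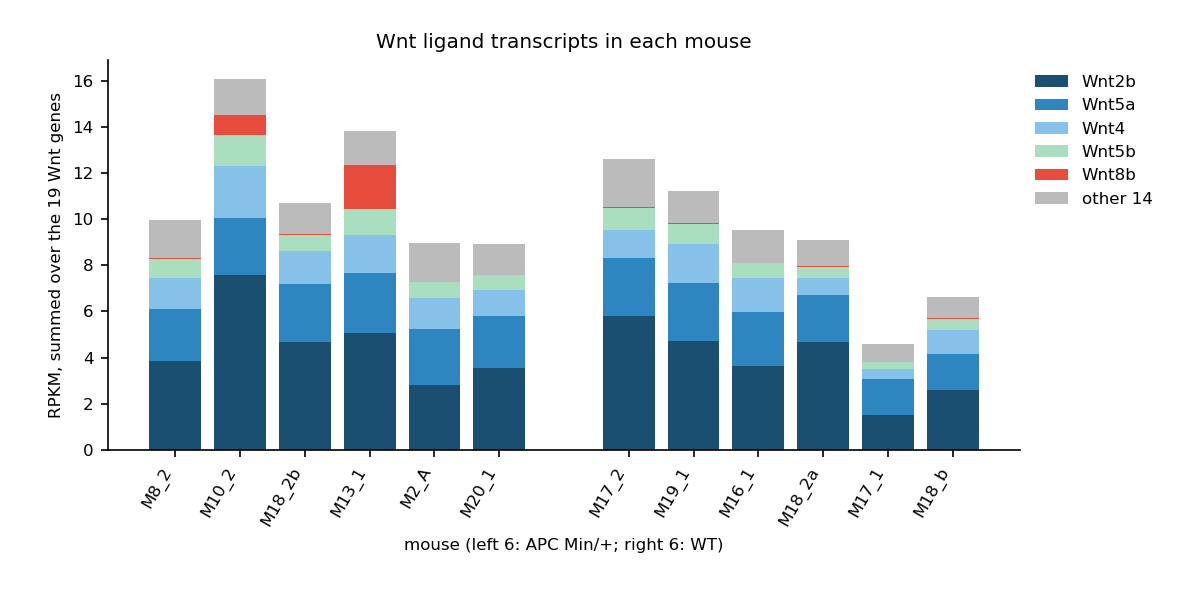
Summed RPKM of the 19 Wnt genes in each mouse, with 1 bar per mouse divided by gene. Wnt2b is the largest segment in most bars, the bars of M10_2 and M17_1 are the highest and the lowest, and a broad Wnt8b segment appears in M10_2 and M13_1, at 0.845 and 1.90 RPKM.

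Fzd5, a receptor of the gut epithelium that signals through beta-catenin, was the most abundant Frizzled in 12 of 12 mice. Its values were 9.69, 18.3 and 22.9 RPKM (lowest, median, highest) in APC Min/+ mice and 11.5, 16.9 and 21.9 RPKM in WT mice. It contributed 41.8% ± 5.97 (SD, n = 12) of the summed Frizzled level. Fzd1 came next in 9 mice, with medians of 7.48 RPKM in APC Min/+ and 4.996 RPKM in WT mice. Fzd4, which also serves as the receptor for norrin in blood vessels, had medians of 4.23 and 4.67 RPKM. Fzd7, known for a role in intestinal stem cells, had medians of 4.56 and 3.17 RPKM. Fzd4 and Fzd7 each kept their rank in 6 of 12 mice only, so that their order did not hold beyond the spread between mice. Fzd9 and Fzd10 were lowest, with medians over all mice of 0.200 and 0.224 RPKM.

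Of the co-receptors, Lrp6 was above Lrp5 in every mouse and made up 82.3% ± 5.35 (SD, n = 12) of their sum. Lrp6 had values of 13.6, 19.97 and 27.3 RPKM in APC Min/+ and 10.7, 17.3 and 20.5 RPKM in WT mice. Lrp5 varied more, from 1.60 over 5.41 to 7.34 RPKM and from 0.983 over 3.47 to 5.72 RPKM. Rspo3, the R-spondin made by stromal cells around the colonic crypt base, was the highest of its family in all 12 mice. It measured 1.65, 2.11 and 4.14 RPKM in APC Min/+ and 1.35, 2.06 and 2.62 RPKM in WT mice. Rspo1 had medians of 0.671 and 0.579 RPKM.

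Among the inhibitors, Dkk3 and Sfrp1 had medians over the 12 mice above those of every Frizzled but Fzd5. Dkk3, a Dkk family member whose action on Wnt signalling is less clear than that of Dkk1, led its group in 12 mice with 10.6, 12.5 and 16.04 RPKM in APC Min/+ and 6.27, 10.1 and 15.1 RPKM in WT mice. Sfrp1 had values of 5.94, 7.11 and 12.6 RPKM and of 4.19, 6.62 and 8.14 RPKM. Sfrp4 ranged from 1.67 over 4.73 to 7.62 RPKM and from 1.84 over 4.57 to 7.83 RPKM. Sfrp1 exceeded all other Sfrp genes in 10 of 12 mice. Wif1 had medians of 0.892 RPKM in APC Min/+ and 1.23 RPKM in WT mice.

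Between the genotypes, 0 of the 34 genes that passed the filter were called, which required an FDR under 0.05 and a 2-fold change by edgeR's quasi-likelihood test. Of the 20311 genes tested in all, 0% were called. The lowest FDR among the 34 was 0.908. DESeq2 and edgeR's likelihood ratio test also called 0 of them, while calling 27 and 15 genes of the whole table. An unadjusted p under 0.05 was found for 5 of the 34, beside 5.27% of all genes tested. All 5 were higher in APC Min/+ mice, where 3.46% of all genes had such a p, and 0 were lower, where the background was 1.81%. They were the ligands Wnt8b and Wnt2 and the inhibitors Sfrp2, Sfrp5 and Dkk2. No gene of the 34 had genotypes that did not overlap, as 0.0886% of all genes did.

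Sfrp2 (ENSMUSG00000027996.7, GRCm38 chromosome 3, 83766321 to 83774316) encodes an inhibitor made by stromal fibroblasts. It was at 1.07, 1.20 and 3.86 RPKM (lowest, median, highest) in APC Min/+ mice and at 0.220, 0.858 and 1.22 RPKM in WT mice. The 4 APC Min/+ mice other than M10_2 and M13_1 lay between 1.07 and 1.22 RPKM, at the upper end of the WT range. On the log2 scale the fold change was 1.19 (standard error 0.41, unadjusted p = 0.0129 and FDR = 0.908 in edgeR's quasi-likelihood test). The exact permutation test on log2(CPM + 0.1) gave p = 0.0108, two-sided, where 0.0022 is the smallest the 924 arrangements can give. An antisense gene, Gm26771, shares 347 bases with Sfrp2, and had a median of 22 counts against 229 for Sfrp2. Since the strand setting of the counting is not given in the sources used here, reads there cannot be told apart. Wnt5a, Wnt7b, Wnt11 and Fzd6 also share bases with an antisense gene.

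Wnt8b (ENSMUSG00000036961.4, chromosome 19, 44493472 to 44514273) encodes a ligand best known from the developing forebrain. It had 538 counts in M10_2 and 530 in M13_1, and between 0 and 26 counts in each of the other 10 mice. Its level was 0.845 and 1.90 RPKM in these mice and at most 0.0609 RPKM elsewhere. M17_1 had 0 counts, where the limit of 3 counts stands for 0.0276 CPM. The log2 fold change of 3.85 (standard error 1.26, unadjusted p = 0.00884, FDR = 0.908 in edgeR's quasi-likelihood test) therefore rested on M10_2 and M13_1, and the exact permutation test gave p = 0.268. The study's own edgeR comparison, with the same FDR and fold thresholds, listed many genes, with Wnt8b among those higher in APC Min/+ mice. The quasi-likelihood fit here called 0 of 20311 genes, so this difference between the analyses was not particular to Wnt8b. Its cause was not tested.

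Dkk2 (chromosome 3, 132085292 to 132180304) was at 0.265, 0.434 and 0.766 RPKM in APC Min/+ and at 0.132, 0.258 and 0.394 RPKM in WT mice. This was a log2 difference of 0.76 (standard error 0.26, unadjusted p = 0.0131 in edgeR's quasi-likelihood test, exact permutation p = 0.0216). Here M2_A, at 0.518 RPKM, stood above M13_1, at 0.473 RPKM. Sfrp5 (chromosome 19, 42197971 to 42202252) was at 0.745, 0.969 and 1.22 RPKM and at 0.172, 0.520 and 1.05 RPKM, a log2 difference of 0.71 (standard error 0.31, unadjusted p = 0.036 in edgeR's quasi-likelihood test, exact permutation p = 0.0173). Wnt2 (chromosome 6, 17988940 to 18030585) was low in every mouse, at 0.0651, 0.201 and 0.386 RPKM and at 0.0403, 0.0845 and 0.172 RPKM. The log2 difference was 1.03 (standard error 0.43, unadjusted p = 0.0321 in edgeR's quasi-likelihood test, exact permutation p = 0.0779). The ranges of all 3 genes overlapped between genotypes, and over the 34 genes the exact permutation test gave p under 0.05 for 4, the fourth being Wnt16.

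In the fit without M10_2 and M13_1, which was chosen after seeing the data, 0 of the 34 genes had an unadjusted p under 0.05, as did 1.59% of the 19978 genes tested. The log2 fold change of Wnt8b became -0.16 and that of Sfrp2 0.50 (standard error 0.34). Those of Dkk2, Sfrp5 and Wnt2 became 0.53, 0.61 and 0.60. Over the fits with 1 mouse removed, Wnt8b, Sfrp2 and Dkk2 had an unadjusted p under 0.05 in all 12 fits, Wnt2 in 7 and Sfrp5 in 5. The number of such genes, 5 with all mice, was 10 without the WT mouse M17_2, 7 without M18_2b (1 of them, Wif1, lower in APC Min/+) and 3 without M10_2. Of all genes tested, 5.27% had such a p with all mice. The share was 5.96% without M17_2, 6.68% without M18_2b and 2.6% without M10_2.

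The 3 lowest fold changes belonged to Fzd3, Wif1 and Wnt11, a ligand of the beta-catenin independent branch. Fzd3 measured 0.270, 0.785 and 1.27 RPKM in APC Min/+ and 0.677, 1.11 and 1.32 RPKM in WT mice. The log2 difference was -0.50 (standard error 0.37), and it became -0.09 without M10_2 and M13_1. Wif1 had -0.35 (standard error 0.26), and Wnt11 had -0.27 (standard error 0.37). None of these 3 had an unadjusted p under 0.05.

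Smaller differences leaned to the APC Min/+ side. The log2 fold change was above 0 for 25 of the 34 genes, compared with 48.4% of all genes, with a median of 0.22 against -0.0077. Without M10_2 and M13_1 it was above 0 for 28 of 34, against 48.5%, with a median of 0.19. Without M17_1 it was above 0 for 24, against 49.2%, with a median of 0.14. The WT mice M17_1 and M18_b lay below the median of the 12 mice for 29 and 30 of the 34 genes. Of the other WT mice, M16_1 and M18_2a lay below it for 22 each, M17_2 for 10 and M19_1 for 12. The abundant genes had differences near or within 2 standard errors, such as Fzd1 at 0.57 (standard error 0.29), Lrp6 at 0.23 (0.18), Wnt2b at 0.21 (0.29), Rspo3 at 0.20 (0.21), Dkk3 at 0.29 (0.16) and Fzd5 at 0.02 (0.20). These genes share mice, and their directions are not independent of each other.

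**Figure D3:**
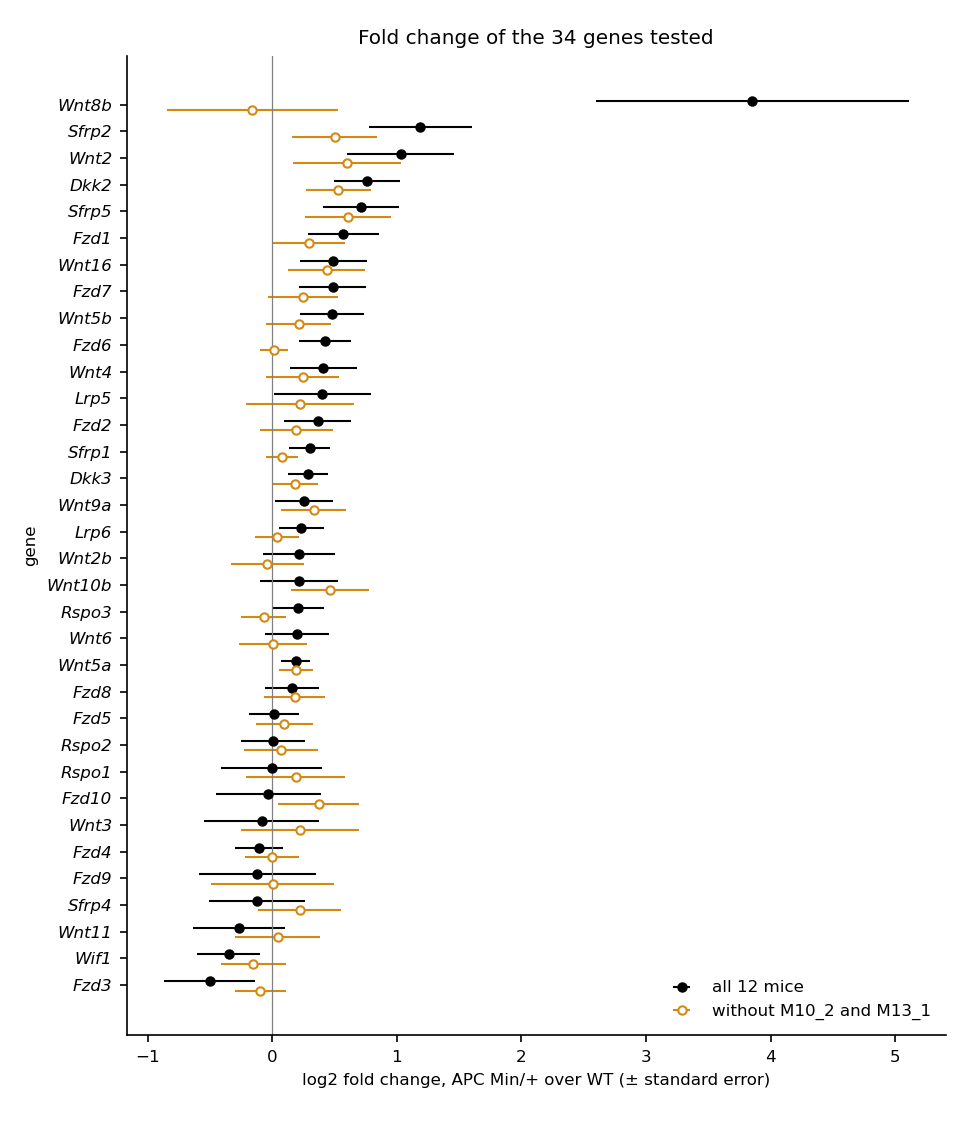
Log2 fold change of APC Min/+ over WT (edgeR, ± standard error derived from the test statistic) for the 34 genes tested. Values are from all 12 mice (filled) and without M10_2 and M13_1 (open). Wnt8b lies at 3.85 with all mice and at -0.16 without these, and 25 of the filled points are to the right of 0.

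Over the 34 genes the median coefficient of variation over the 12 mice was 38.3%, against 24.9% for all genes tested. M10_2 and M13_1 held the 2 highest values for 11 of the 34 genes, as they did for 16.6% of all genes. These were Wnt5b, Wnt8b, Fzd1, Fzd6, Fzd7, Lrp6, Rspo3, Sfrp1, Sfrp2, Sfrp5 and Dkk3. They held the 2 lowest values for Fzd3 and Fzd10, 2 of the 34 genes, against 9.1% of all genes. Fzd6 and Fzd10 were chosen after their values were seen.

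Fzd6 (chromosome 15, 39006034 to 39038188), a receptor of planar cell polarity, was at 5.83 RPKM in M10_2 and 5.75 RPKM in M13_1, and between 2.31 and 3.14 RPKM in the other 10 mice. Fzd3, which shares that role, went the other way, at 0.286 and 0.270 RPKM against 0.677 to 1.32 RPKM. Fzd10 was at 0.0639 and 0.0811 RPKM, against 0.0817 to 0.291 RPKM. The separation of M10_2 and M13_1 from the rest was thus wide for Fzd6, Fzd3, Wnt8b and Sfrp2 and narrow for Fzd10. Sfrp4 was also low in M10_2, at 1.67 RPKM, although M17_1 lay at 1.84 RPKM and M13_1 at 2.76 RPKM.

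**Figure D4:**
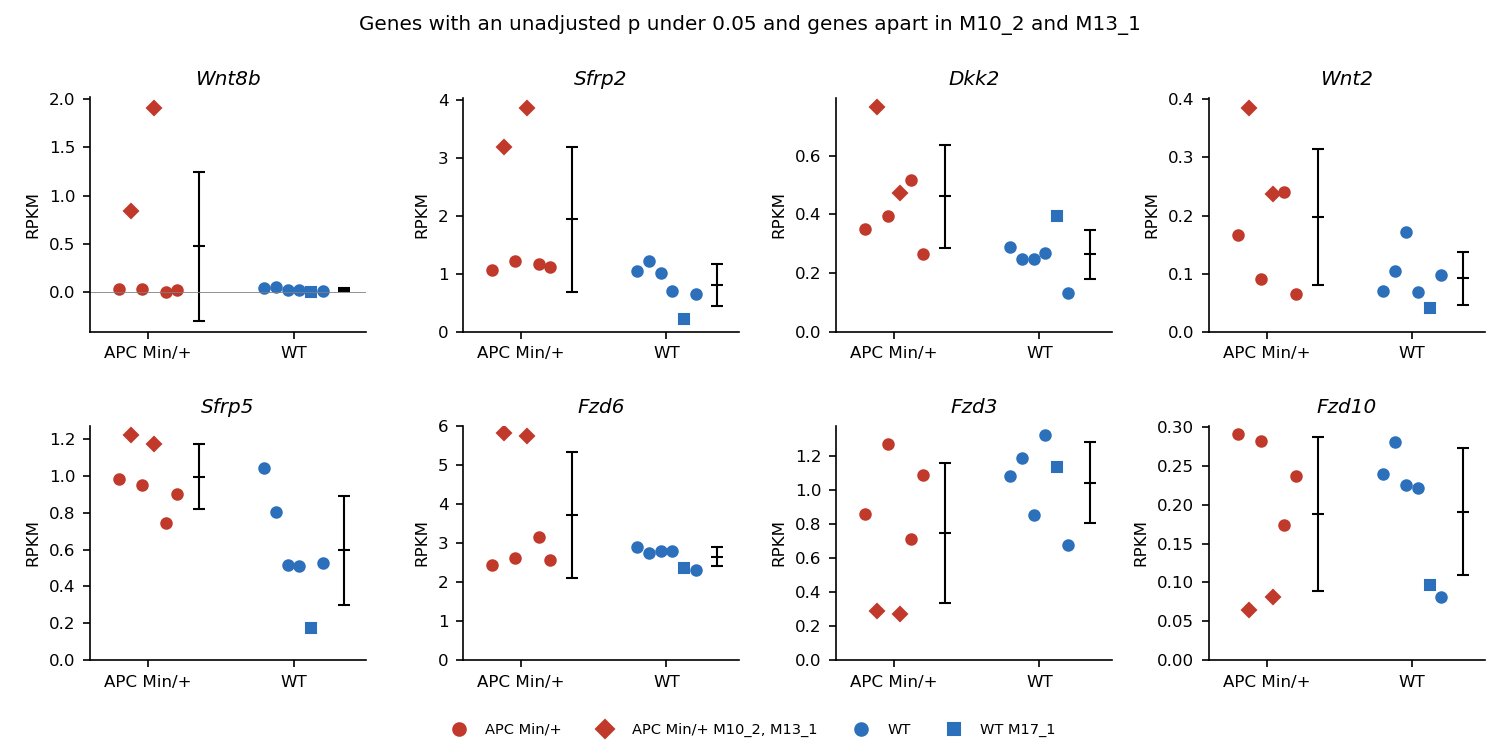
RPKM per mouse for the 5 genes with an unadjusted p under 0.05 and for Fzd6, Fzd3 and Fzd10, with the mean ± SD of each genotype (n = 6). Diamonds mark M10_2 and M13_1, which lie far above the other APC Min/+ mice for Wnt8b, Sfrp2 and Fzd6 and below them for Fzd3 and Fzd10, while Sfrp5 and Dkk2 are spread over both genotypes.

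M17_1 held the lowest value for 18 of the 34 genes, as it did for 22.1% of all genes. Its median deviation from the 12-mouse median was -0.83 on the log2 scale over the 34 genes and 0.04 over all genes tested. Lrp5 was at 0.983 RPKM in this mouse, Fzd1 at 2.02 RPKM and Sfrp2 at 0.220 RPKM, while Wif1, at 1.63 RPKM, and Rspo3, at 2.34 RPKM, were not low. M18_b, also WT, was lowest for 8 genes, Rspo2 and Rspo3 among them, and the share of all genes lowest there was not computed. Its median deviation was -0.30 over the 34 genes and -0.007 over all genes tested. Across the 20021 genes with a known transcript, the deviation of M17_1 fell with GC content (Spearman's rho = -0.33, over genes, which are not replicates). That rho lay between -0.44 and 0.33 in the other mice, and the 34 genes had a median GC content of 52.6% against 49.6% for all. The part of GC content in these levels was not tested.

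**Figure D5:**
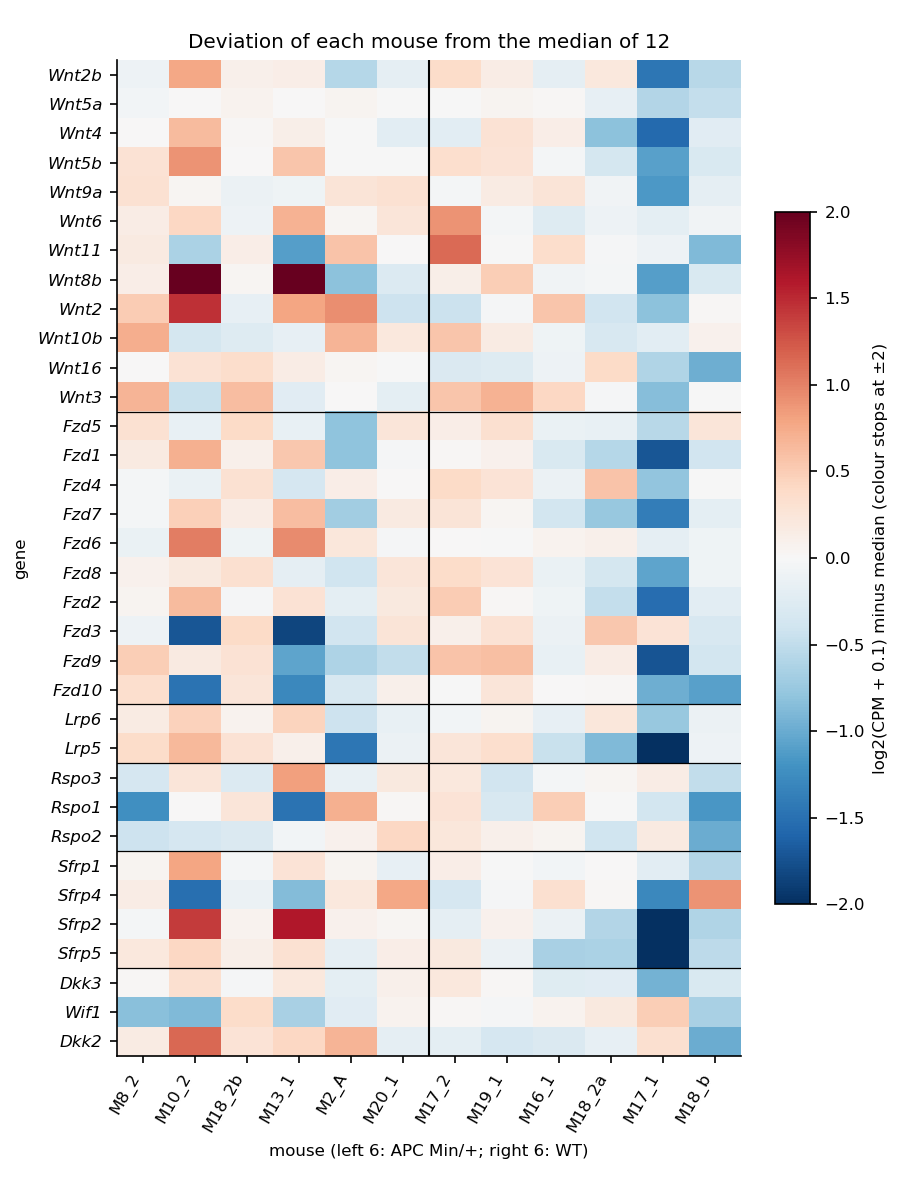
Deviation of each mouse (columns) from the median of the 12 mice in log2(CPM + 0.1), for the 34 genes tested (rows, by family). Red is above and blue below the median, with the colour ending at ±2. M17_1 is blue in most rows, and M10_2 and M13_1 show red for Wnt8b, Sfrp2 and Fzd6 and blue for Fzd3 and Fzd10.

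The promoters of Wnt8b and Sfrp2, the genes highest in M10_2 and M13_1 relative to the other mice, are shown with those of Wnt5b and Wnt11, which hold a TCF/LEF motif. Each spans 250 bases before to 50 after a RefSeq start site on GRCm38.p6, on the strand of the gene. Capitals mark matches to CTTTGAT, a core bound by TCF/LEF factors, or to TTTATNG, a motif of posterior Hox and Cdx factors, searched on both strands.
Wnt8b, chr19:44493222-44493521, + strand: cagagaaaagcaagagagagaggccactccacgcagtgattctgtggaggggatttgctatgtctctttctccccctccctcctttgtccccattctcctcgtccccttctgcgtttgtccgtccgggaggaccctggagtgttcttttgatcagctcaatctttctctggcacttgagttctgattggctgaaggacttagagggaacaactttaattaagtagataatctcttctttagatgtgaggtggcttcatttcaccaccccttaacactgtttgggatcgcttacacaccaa
Sfrp2, chr3:83766071-83766370, + strand: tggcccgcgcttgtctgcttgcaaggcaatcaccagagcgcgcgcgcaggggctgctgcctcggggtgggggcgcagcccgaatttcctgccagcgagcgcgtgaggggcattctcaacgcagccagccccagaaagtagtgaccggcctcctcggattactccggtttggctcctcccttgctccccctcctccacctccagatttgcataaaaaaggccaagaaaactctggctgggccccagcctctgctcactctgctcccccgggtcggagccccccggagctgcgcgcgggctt
Wnt5b, chr6:119449337-119449636, - strand: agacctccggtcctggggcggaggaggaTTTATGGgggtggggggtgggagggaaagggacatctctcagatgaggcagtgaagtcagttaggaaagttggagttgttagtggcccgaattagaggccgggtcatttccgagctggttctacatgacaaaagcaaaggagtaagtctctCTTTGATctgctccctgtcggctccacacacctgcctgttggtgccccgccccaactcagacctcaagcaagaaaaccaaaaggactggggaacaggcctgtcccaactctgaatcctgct
Wnt11, chr7:98834862-98835161, + strand: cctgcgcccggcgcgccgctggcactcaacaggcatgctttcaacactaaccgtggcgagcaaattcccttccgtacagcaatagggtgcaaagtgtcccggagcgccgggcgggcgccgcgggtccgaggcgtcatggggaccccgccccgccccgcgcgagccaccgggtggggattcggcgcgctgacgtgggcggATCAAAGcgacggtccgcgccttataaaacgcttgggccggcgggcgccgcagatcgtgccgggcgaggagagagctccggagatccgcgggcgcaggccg

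A promoter was listed for 28 of the 43 genes, 31 in all. The TCF/LEF core was in those of Wnt5b and Wnt11, 2 of 31, and in 3.73% of the 32544 promoters of the genome. The Hox and Cdx motif was in those of Wnt5b, Wnt2, Dkk2 and Wif1, 4 of 31, and in 10.8% of all. The windows of Wnt8b and Sfrp2 held neither. Wnt5b and Wnt11 have further listed start sites without a match. These are matches of letters and say nothing of binding.

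The remaining genes of the pathway showed the same absence of calls. Of 51 such genes, 49 passed the filter and 0 were called. An unadjusted p under 0.05 was found for 4, all higher in APC Min/+ mice, beside the 5.27% of all genes. Lgr4, a receptor for R-spondins, averaged 36.7 ± 20.02 RPKM (SD, n = 6) in APC Min/+ and 21.02 ± 3.09 RPKM in WT mice. Its fold change was 0.73 on the log2 scale, and 0.18 without M10_2 and M13_1. Frzb, a secreted relative of the Sfrp genes, had 1.48, and 0.34 without these mice. The nuclear factors Tcf7l1 and Tcf7l2 had 1.15 and 0.45, and 0.29 and 0.17 without them. All 4 were highest in M10_2 and M13_1, and without both mice 0 of the 48 tested had an unadjusted p under 0.05.

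Of the 12 genes known as targets of beta-catenin, 0 had an unadjusted p under 0.05, beside 5.27% of all genes tested. A log2 fold change above 0 was found for 9 of them, beside 48.4% of all genes. Axin2, the most direct readout of the pathway, averaged 3.96 ± 1.51 RPKM (SD, n = 6) in APC Min/+ and 3.18 ± 1.02 RPKM (SD, n = 6) in WT mice, which is 0.27 on the log2 scale (standard error 0.25). Myc was at 5.80 ± 2.20 and 4.67 ± 1.51 RPKM. Porcn and Wls, needed to modify and to export every Wnt ligand, had log2 fold changes of 0.08 and 0.11. Wls was at 51.9 ± 10.8 RPKM and 46.2 ± 6.93 RPKM.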

How the data were processed

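The authors aligned paired-end reads to the mouse genome (GRCm38.p2) with STAR 2.3.0, counted them on Ensembl genes with featureCounts and deposited 1 table of raw counts and gene lengths per mouse. The setting for strand is not given in the sources used here. Symbols and gene positions were taken from GENCODE M21. The counts were fitted in edgeR 4.0.16 (R 4.3.3) with TMM factors (0.906 to 1.10), the quasi-likelihood test, genotype as the only term and Benjamini-Hochberg adjustment over the 20311 genes that reached 10 counts in 3 or more mice. Alternatives were RLE factors, other filters, DESeq2 1.42.0, the likelihood ratio test, a term for the suffix of the mouse names, and leaving out each mouse. The fit was tested on simulated data. Replicates are separate mice, numbered in the order of the records, and none of the 30 pairs of libraries within a genotype agreed within counting noise. Counting error, which the spread between mice includes, weighs on genes with few counts, such as Wnt3 (4 to 58 counts per mouse). RPKM used total counts. Standard errors of the quasi-likelihood fits were derived as the absolute log2 fold change divided by the square root of the test's F statistic.

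The genes, gene lists and tests were chosen with earlier results of these data known. Named were the 2 most abundant genes of each family (4 for ligands and Frizzleds), those with an unadjusted p under 0.05, the 3 largest fold changes in each direction and the 5 with the highest ratio of highest to median CPM.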

Additional observations from a re-analysis of the deposited data

Results flagged for a closer look

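Within each genotype, 1 of 68 sets of 6 values held a mouse far from the rest by Dixon's criterion, which chance exceeds in about 1 of 20 sets. The criterion judges a mouse by its gap to the nearest value, so M10_2 and M13_1, which lay apart together for Wnt8b, were not flagged there. Wnt6, a ligand, was at 0.567 RPKM in the WT mouse M17_2, the library with the fewest counts, and between 0.207 and 0.260 RPKM in the other WT mice. In the genotype comparison without M17_2, Wnt6 had an unadjusted p of 0.0355, against 0.445 with all mice.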

How the results depend on the processing

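The number of genes called stayed at 0 in all 19 alternative fits. The number with an unadjusted p under 0.05 was 5 of the 34 with RLE factors, DESeq2 and the likelihood ratio test, and 4 in the exact permutation test. Without a filter, which tested all 43, it was 6, the same 5 and Wnt7a, lower in APC Min/+ with at most 2 counts in any mouse. It was 3 with at least 0.5 CPM in at least 6 mice, which left 29 of the genes, and 3 with the name suffix as a term. Of all genes tested, 5.35% had such a p with RLE factors, 6.48% with DESeq2 and 5.57% with the likelihood ratio test. The share was 5.45% without a filter, 4.41% with the CPM filter and 4.18% with the suffix term. Leaving out 1 mouse gave between 3 and 10 of these genes and between 2 (without M13_1) and 8 (without M2_A) of the other pathway genes. The share of all genes moved as well, from 2.6% without M10_2 and 2.97% without M13_1 to 9.03% without M2_A. Without M10_2 and M13_1, an alternative chosen after seeing the data, both numbers were 0, beside 1.59% of all genes. The causes were not tested. The number of genes at a median of 1 RPKM stayed within 1.5 times 18 at every limit tried.

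The log2 fold changes of the 23 named genes changed sign in 22 of 435 alternative values. Leaving out 1 mouse gave -0.073 to 0.15 for Fzd5, -0.24 to 0.17 for Rspo1, -0.37 to 0.13 for Sfrp4 and -0.43 to 0.039 for Wnt11. The name suffix gave -0.037 for Fzd5, and no filter gave 0.00046 for Rspo1. Without M10_2 and M13_1 the values were -0.040 for Wnt2b, -0.068 for Rspo3, 0.19 for Rspo1, 0.22 for Sfrp4, -0.16 for Wnt8b and 0.043 for Wnt11. No paired analysis was possible because the labels pair no mice across genotypes. The 9 genes below the filter had at most 6 counts in a mouse, which limits any comparison of them.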

Other observations

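Some of these genes varied little outside M10_2 and M13_1. Over the other 10 mice the coefficient of variation was 9.69% for Fzd6 and 15.99% for Sfrp1, against 38.8% and 28.5% over all 12. Wnt5a had the lowest value over all 12 mice, 16.4%, and Wnt8b the highest, 225.6%.

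Among the other pathway genes, several were apart in M10_2 and M13_1. Lgr4 was at 60.2 and 64.2 RPKM, against 16.2 to 27.0 RPKM in the other mice. Tcf7l1, a repressor among the TCF factors, was at 12.8 and 10.8 RPKM, against 1.04 to 4.88 RPKM. Ror1, a receptor for Wnt5a, was at 3.65 and 4.13 RPKM, against 1.15 to 2.15 RPKM. Cd44, a cell adhesion receptor listed here as a target of the pathway, was at 6.64 and 6.35 RPKM, against 15.7 to 20.7 RPKM. Ascl2, a factor of intestinal stem cells, was at 3.24 and 2.95 RPKM, against 0.979 to 1.92 RPKM. These genes were chosen after their values were seen.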
